A study of Mus musculus with 6 samples.

Results

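The cholesterol synthesis and sterol sensing genes described here are Hmgcs1, Idi1, Fdft1, Sqle, Lss, Dhcr7, Srebf2 and Insig1, which are 8 of the 46983 genes in the count table. They were chosen by their role in the pathway, 6 as enzymes of the route from acetyl-CoA to cholesterol and 2 as parts of the sensor that sets the rate of that route. RNAseq was performed on GFP+ neural crest cells (NCCs) sorted from mouse embryos at E11.25, with 3 control and 3 BAF155/170-deficient samples. Control embryos were Wnt1Cre/+;BAF155flox/+;BAF170flox/+;Rosa26mTmG/+ and deficient embryos were Wnt1Cre/+;BAF155flox/flox;BAF170flox/flox;Rosa26mTmG/+. BAF155 and BAF170 are scaffold subunits of the BAF chromatin remodeling complex. Both groups thus carried Wnt1Cre, which recombines in the dorsal neural tube and its neural crest descendants, and the mTmG allele, which turns on membrane GFP in cells that have expressed Cre. Control cells can lose 1 copy of each gene, so the comparison is of loss of both copies against loss of 1.

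Cells build cholesterol from acetyl-CoA through mevalonate, isoprenoid units, squalene and lanosterol. When sterol in the endoplasmic reticulum is low, the escort protein Scap carries the transcription factor precursor SREBP2, the product of Srebf2, to the Golgi, where proteases release its active part, and Insig proteins hold the precursor back when sterol is plentiful. In the embryo cholesterol is a membrane lipid and is also attached to Hedgehog ligands, and human DHCR7 deficiency (Smith-Lemli-Opitz syndrome) affects the face, heart and limbs.

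Counts on genes summed to between 8191219 and 19808620 per library, and all 3 deficient libraries were deeper than the deepest control. Smarcc1, which encodes BAF155, was lower in the deficient libraries (log2 fold change −0.71, SE 0.16, edgeR adjusted p = 0.0676), whereas Smarcc2, which encodes BAF170, had a log2 fold change of −0.11 (SE 0.058, adjusted p = 0.251). A transcript that lacks its floxed exons can still add to the count of the gene. Counts per exon were not examined, and the cause of the Smarcc2 value was not tested. Smarcc1 did not pass without control replicate 1 or without either of deficient replicates 2 and 3, with adjusted p from 0.132 to 0.225. Markers of another cell type were abundant in every library. A list of 12 macrophage markers took between 1.03% and 1.52% of the counts, while a list of 33 embryonic crest and neural markers took between 0.0117% and 0.0280%. All 12 macrophage markers passed the filter on low counts, and none was at 0. Of the 33 embryonic markers 29 passed. Of those that did not, Foxd3 had between 2 and 20 counts per library and Phox2a between 1 and 9. In bulk samples such as these, fewer cells of a type and less RNA per cell cannot be told apart.

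The promoter windows below come from RefSeq (GRCm38.p6) and cover 250 bases before to 50 bases after an annotated start site, all on the plus strand. They are shown for Hmgcs1 and Lss, enzyme genes that were lower in the deficient libraries, and for Srebf2 and Insig1, the sensor genes. Of the 8 genes, 6 had a window, and Sqle and Fdft1 had none. Capitals mark the letters TCACNCCAC, a form of the sterol regulatory element bound by SREBPs, and CCAAT, the letters of the element bound by NF-Y, a factor that works with SREBPs, each searched on both strands, so that CCAAT on the minus strand reads ATTGG.
Hmgcs1, chr13:119690101-119690400: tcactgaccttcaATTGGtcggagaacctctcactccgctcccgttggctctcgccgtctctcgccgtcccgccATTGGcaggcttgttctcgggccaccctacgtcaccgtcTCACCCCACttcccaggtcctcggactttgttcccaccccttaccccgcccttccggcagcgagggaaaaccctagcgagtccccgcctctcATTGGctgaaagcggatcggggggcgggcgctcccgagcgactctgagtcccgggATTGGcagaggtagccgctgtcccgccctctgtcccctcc
Lss, chr10:76531355-76531654: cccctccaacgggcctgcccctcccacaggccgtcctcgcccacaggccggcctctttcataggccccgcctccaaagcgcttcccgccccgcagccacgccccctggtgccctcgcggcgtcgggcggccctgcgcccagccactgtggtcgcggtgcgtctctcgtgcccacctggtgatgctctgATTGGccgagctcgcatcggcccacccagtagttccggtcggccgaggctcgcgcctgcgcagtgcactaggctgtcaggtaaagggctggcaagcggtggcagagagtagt
Srebf2, chr15:82147019-82147318: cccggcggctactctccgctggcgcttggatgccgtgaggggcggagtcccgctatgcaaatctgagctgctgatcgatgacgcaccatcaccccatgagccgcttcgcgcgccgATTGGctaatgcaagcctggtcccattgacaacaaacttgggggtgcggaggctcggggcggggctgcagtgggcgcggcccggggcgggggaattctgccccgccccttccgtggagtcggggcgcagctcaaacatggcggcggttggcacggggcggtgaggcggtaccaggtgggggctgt
Insig1, chr5:28071162-28071461: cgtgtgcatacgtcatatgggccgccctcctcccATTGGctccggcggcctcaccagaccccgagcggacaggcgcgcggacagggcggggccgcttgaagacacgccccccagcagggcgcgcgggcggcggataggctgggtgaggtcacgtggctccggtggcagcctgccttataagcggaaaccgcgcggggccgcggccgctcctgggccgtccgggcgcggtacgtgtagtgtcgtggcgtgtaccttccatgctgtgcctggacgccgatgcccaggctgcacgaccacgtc

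In the window of Hmgcs1 the letters TCACCCCAC began 137 bases before the start site, and CCAAT occurred at 4 places. Lss, Srebf2 and Insig1 each held 1 CCAAT, beginning 62, 135 and 216 bases before the start site. CCAAT also lay in the window of Idi1 and in 1 of the 3 windows of Dhcr7. TCACNCCAC was in none of the other five genes' windows in exactly these letters. The letters GGGCGG, the core of the element bound by Sp1, were in windows of all 6 genes. Among all 32851 windows, 1.24% held TCACNCCAC, 37.4% CCAAT and 35.7% GGGCGG. No match of one motif overlapped a match of another in these windows, and a match describes letters in a window, not a bound site.

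The question was whether transcripts of this pathway differed between the control and BAF155/170-deficient samples. Because of the macrophage markers described above, the values cannot be assigned to NCCs or to any other cell type. All 8 genes passed the filter on low counts, and all 8 had a lower mean in the deficient libraries after TMM normalization, a direction that turned when libraries were scaled to embryonic markers. Hmgcs1, Sqle and Lss were lower with an adjusted p of 0.1 or less (quasi-likelihood test of edgeR, Benjamini-Hochberg adjustment over 13961 genes), and of these Hmgcs1 also met the fold change threshold for a call. Fdft1, Dhcr7, Srebf2, Idi1 and Insig1 did not pass. The 3 genes of 8 stand beside a background of 7.75% of all tested genes that were lower at this adjusted p, and the single call beside 4.88% of all tested genes called lower (adjusted p of at most 0.1, log2 fold change of at least 0.58 in size, mean of at least 2 CPM). CPM is the count scaled to the TMM-normalized library size. The median log2 fold change of the 8 genes was −0.53, or −0.34 without control replicate 2, and that of all tested genes was −0.02. Without control replicate 3 all but Insig1 passed, 7 genes in all. Over all tested genes that fit called 1245 of 14430, against 689 of 13961 with all libraries. A call also needs the fold change and CPM thresholds, so the 7 genes and the 1245 are unlike counts. An unadjusted p under 0.05 by edgeR was found for 4700 genes in that fit, against 3813 with all libraries. None of the 8 passed without control replicate 1, control replicate 2 or either of deficient replicates 2 and 3. In these fits 3, 4, 3 and 4 of the 8 had an unadjusted p under 0.05 by edgeR. Over all tested genes those fits called 0, 61, 264 and 17. The choice of genes was made with earlier results of these data known, so the counts describe these genes and do not set them apart.

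**Figure D1:**
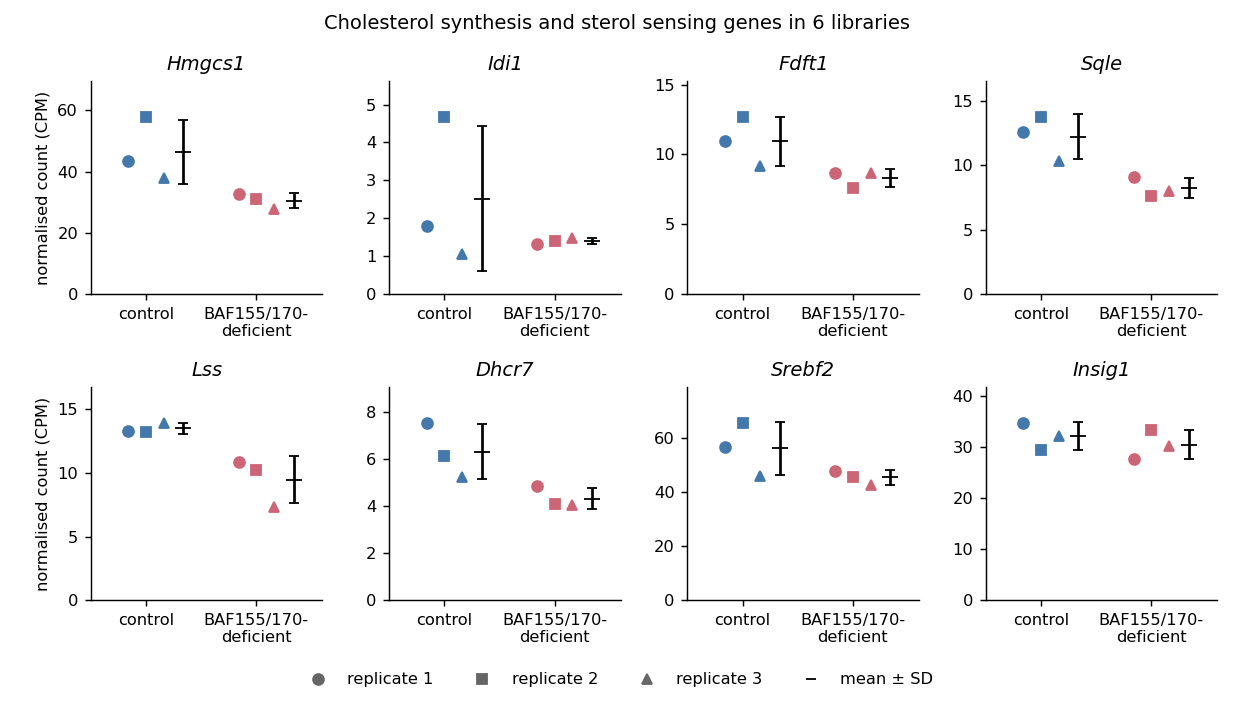
Normalised counts (CPM, linear axes from 0) of the 8 genes in each library, with control in blue, BAF155/170-deficient in red, marker shapes for replicates 1 to 3, and black bars for mean ± SD (n = 3). For Hmgcs1, Fdft1, Sqle, Lss and Dhcr7 every deficient library lies below every control library, while the groups overlap for Idi1, Srebf2 and Insig1.

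Levels were compared between genes only per kilobase of exon, counting all annotated exons of a gene once. These sums exceed the longest annotated transcript unequally (5817 against 2815 bases in Dhcr7, 3093 against 2697 in Insig1). The order below can change with the length used, and other lengths were not tried. In the controls the highest levels were those of Insig1 at 10.4 ± 0.865 CPM per kb (SD, n = 3) and Hmgcs1 at 10.1 ± 2.27 CPM per kb, followed by Srebf2 at 7.80 ± 1.37 CPM per kb. The ranges of Insig1 and Hmgcs1, and those of Hmgcs1 and Srebf2, overlapped. Fdft1 (2.59 ± 0.416 CPM per kb) and Sqle (2.20 ± 0.314 CPM per kb) formed the next pair, with overlapping ranges, and every control value of Srebf2 was above every control value of Fdft1. Lss (1.25 ± 0.0366 CPM per kb) came below Sqle without overlap. Dhcr7 (1.09 ± 0.199 CPM per kb) overlapped with Lss and with Idi1, which was the lowest at 0.719 ± 0.545 CPM per kb. The order of the means was the same in the deficient libraries, where Insig1 (9.85 ± 0.922 CPM per kb) and Hmgcs1 (6.64 ± 0.524 CPM per kb) no longer overlapped.

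Hmgcs1 encodes the cytosolic enzyme that joins acetyl-CoA and acetoacetyl-CoA into HMG-CoA, an early step of the route (ENSMUSG00000093930.1, chromosome 13 of GRCm38 from 119690379 to 119708260, plus strand). It had 43.4, 57.9 and 37.8 CPM in control replicates 1 to 3, against 32.6, 31.1 and 27.9 CPM in deficient replicates 1 to 3. The groups did not overlap, the deficient libraries being lower, and control replicate 2 was well above the other two controls. Hmgcs1 had a log2 fold change of −0.60 (SE 0.15, 95% interval −0.94 to −0.26, edgeR adjusted p = 0.0775). The exact permutation p was 0.1, the smallest that 3 against 3 libraries allow, so that this test could not reach 0.05 for any gene. It did not pass without control replicate 1 (log2 fold change −0.64, edgeR adjusted p = 0.229), control replicate 2 (−0.41, adjusted p = 0.135), deficient replicate 2 (−0.61, adjusted p = 0.146) or deficient replicate 3 (−0.53, adjusted p = 0.251). An antisense gene, Gm48342, shares 557 exon bases with Hmgcs1.

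Idi1 encodes the isomerase that converts isopentenyl diphosphate to dimethylallyl diphosphate, the pair of units from which longer isoprenoids are assembled (ENSMUSG00000058258.14, chromosome 13 from 8885501 to 8892451). It had few counts, between 13 and 35 counts per library. Its values were 1.81, 4.68 and 1.07 CPM in control replicates 1 to 3, against 1.33, 1.41 and 1.47 CPM in deficient replicates 1 to 3. The deficient values lay inside the control range, and control replicate 2 alone was high. The log2 fold change of −0.77 had an SE of 0.49 and a 95% interval from −1.84 to 0.30 (edgeR adjusted p = 0.327), and it was −0.01 without control replicate 2 and −1.17 without control replicate 3 (adjusted p = 0.0833). In stretches of at least 100 bases with 95% identity or more, 33.3% of the longest Idi1 transcript matched 3 other annotated genes, so its count is uncertain, and it shares 323 exon bases with Gm48574 on the opposite strand.

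Fdft1 encodes squalene synthase, which makes the first compound committed to sterols (ENSMUSG00000021273.9, chromosome 14 from 63145150 to 63179578, minus strand). Control replicates 1 to 3 had 11.0, 12.7 and 9.19 CPM and deficient replicates 1 to 3 had 8.69, 7.58 and 8.64 CPM. The groups did not overlap, with control replicate 3 closest to the deficient libraries. This gave a log2 fold change of −0.39 (SE 0.16, 95% interval −0.75 to −0.03), which did not pass (edgeR adjusted p = 0.151). Without control replicate 3 it was −0.51 (edgeR adjusted p = 0.0650). Fdft1 shares 774 exon bases with Ctsb, a lysosomal protease gene on the opposite strand that had 708858 counts over the 6 libraries against 727 for Fdft1. The library kit keeps strand, but whether the counting used it is not given in the sources used here, so the Fdft1 count is uncertain. At the limits given for Idi1, 54.7% of the longest Fdft1 transcript matched Ctsb or Gm6781. Ctsb itself had a log2 fold change of 0.21 (SE 0.081, adjusted p = 0.134).

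Sqle encodes squalene epoxidase, the oxygen-dependent step that is rate-limiting for the later part of the route (ENSMUSG00000022351.14, chromosome 15 from 59315077 to 59331192). It was at 12.6, 13.8 and 10.3 CPM in control replicates 1 to 3, against 9.08, 7.64 and 8.02 CPM in deficient replicates 1 to 3. Every deficient library was below every control library. Sqle had a log2 fold change of −0.56 (SE 0.16, 95% interval −0.91 to −0.22, edgeR adjusted p = 0.0798), just under the size needed for a call. The adjusted p was 0.247 without control replicate 1, 0.250 without control replicate 2, 0.167 without deficient replicate 2 and 0.251 without deficient replicate 3. No other annotated transcript matched Sqle at the limits given for Idi1.

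Lss encodes lanosterol synthase, which folds epoxidized squalene into the first sterol ring system (ENSMUSG00000033105.12, chromosome 10 from 76531588 to 76557138). Its controls were the most alike of the 8 genes, at 13.3, 13.2 and 14.0 CPM, while deficient replicates 1 to 3 were at 10.9, 10.2 and 7.36 CPM. The groups did not overlap, and deficient replicate 3 was the lowest library. For Lss the log2 fold change was −0.52 (SE 0.16, 95% interval −0.88 to −0.16, edgeR adjusted p = 0.0924). Lss did not pass with DESeq2 (adjusted p = 0.104), with library totals (adjusted p = 0.119) or after a correction for gene length (log2 fold change −0.33, adjusted p = 0.174), and its exons sum to 10787 bases, the longest of the 8 genes. Lss shares 381 exon bases with the antisense gene 4930483K19Rik, which had 9 counts over the 6 libraries. Leaving out control replicate 1 gave an adjusted p of 0.250, leaving out control replicate 2 gave 0.237, leaving out deficient replicate 2 gave 0.143 and leaving out deficient replicate 3 gave 0.305.

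Dhcr7 encodes the reductase that turns 7-dehydrocholesterol into cholesterol (ENSMUSG00000058454.14, chromosome 7 from 143823145 to 143848410). It had 7.55, 6.15 and 5.25 CPM in control replicates 1 to 3, against 4.86, 4.09 and 4.04 CPM in deficient replicates 1 to 3, on 46 to 85 counts per library. The groups did not overlap. The log2 fold change of −0.55 was close to that of Sqle, but with an SE of 0.22 and a 95% interval from −1.02 to −0.07 it did not pass (edgeR adjusted p = 0.135). Without control replicate 3 it was −0.67 (edgeR adjusted p = 0.0703).

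Of the sensor genes, Srebf2 encodes SREBP2, the transcription factor that switches on the synthesis enzymes (ENSMUSG00000022463.7, chromosome 15 from 82147181 to 82205379). Control replicates 1 to 3 had 56.7, 65.6 and 45.9 CPM and deficient replicates 1 to 3 had 47.8, 45.6 and 42.6 CPM. Deficient replicate 1 was above control replicate 3, so the groups overlapped. The log2 fold change was −0.30 (SE 0.12, 95% interval −0.56 to −0.04, edgeR adjusted p = 0.137), and without control replicate 3 it was −0.43 (edgeR adjusted p = 0.0154).

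Insig1 encodes a membrane protein that holds the Scap and SREBP complex in the endoplasmic reticulum and is itself a target of SREBPs (ENSMUSG00000045294.11, chromosome 5 from 28071363 to 28078662). It had 34.8, 29.4 and 32.3 CPM in control replicates 1 to 3, against 27.7, 33.4 and 30.3 CPM in deficient replicates 1 to 3. The groups overlapped, with the highest value in a control and the lowest and the next highest value both found in deficient samples. For Insig1 the log2 fold change of −0.08 (SE 0.095) had a 95% interval from −0.29 to 0.13 (edgeR adjusted p = 0.635), so a fall of the size seen for Hmgcs1 lies outside that interval. The difference between Insig1 and the enzymes was not tested. A pseudogene, Gm37784, matched 7.01% of the longest Insig1 transcript.

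Taking the 8 genes as a list, 5 had every deficient library below every control library, beside 16.4% of all tested genes, and all 5 are enzymes. Within the groups the libraries also differed. Control replicate 3 was the lowest control for 6 of the 8 genes and control replicate 2 the highest for 5. Among the deficient libraries, replicate 1 was the highest for 6 genes and replicate 3 the lowest for 4. Relative to the control mean of each gene, the median over the 8 genes was 101%, 114% and 83.5% in control replicates 1 to 3 and 78.1%, 68.1% and 64.8% in deficient replicates 1 to 3.

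The embryonic markers moved with the cholesterol genes across libraries, and the macrophage markers moved the other way. The 29 tested embryonic crest and neural markers summed to 242, 306 and 176 CPM in control replicates 1 to 3 but to 169, 125 and 110.1 CPM in deficient replicates 1 to 3, which is 100.2%, 127%, 72.8%, 70.3%, 52.0% and 45.7% of the control mean. Control replicate 3 and deficient replicate 1, which were close in this sum, were also close in the median of the cholesterol genes. All 29 embryonic markers had a lower mean in the deficient libraries, 10 of them were called lower (Prrx1, Twist1, Msx1, Pdgfra, Alx1, Tfap2a, Tfap2b, Sox10, Isl1 and Nes), and their median log2 fold change was −0.87, from −0.14 to −1.99 in Sox10. The background was 4.88% of all tested genes called lower. With a library left out, the embryonic markers at an edgeR adjusted p of at most 0.1 numbered 20 when control replicate 3 was absent from the fit and 14 when deficient replicate 1 was. Over all tested genes these fits called 1245 of 14430 and 1037 of 14222, against 689 of 13961 with all libraries. A call also needs the fold change and CPM thresholds, so these are not shares at the adjusted p alone. Leaving out deficient replicate 2 gave 1 embryonic marker, and leaving out any of the other 3 libraries gave 0. The macrophage markers summed to between 11234 and 13058 CPM in the controls and between 13146 and 14330 CPM in the deficient libraries. Their log2 fold changes ran from 0.15 to 0.25, the largest being that of Aif1, and the most abundant marker was Ctss at 3833 CPM. None of the 12 had an edgeR adjusted p of at most 0.1, with 8 at an unadjusted p under 0.05, 8 passing by DESeq2 and 2 by limma-voom. Without control replicate 3, 11 of the 12 passed as higher by edgeR, and in the other five fits that left out a library none did. In the edgeR fit without control replicate 3, 4700 of 14430 tested genes had an unadjusted p under 0.05. With all libraries 3813 of 13961 did. These are shares at an unadjusted p, not at the adjusted p used for the markers. The part of these marker shifts in the values of the cholesterol genes was not tested.

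**Figure D2:**
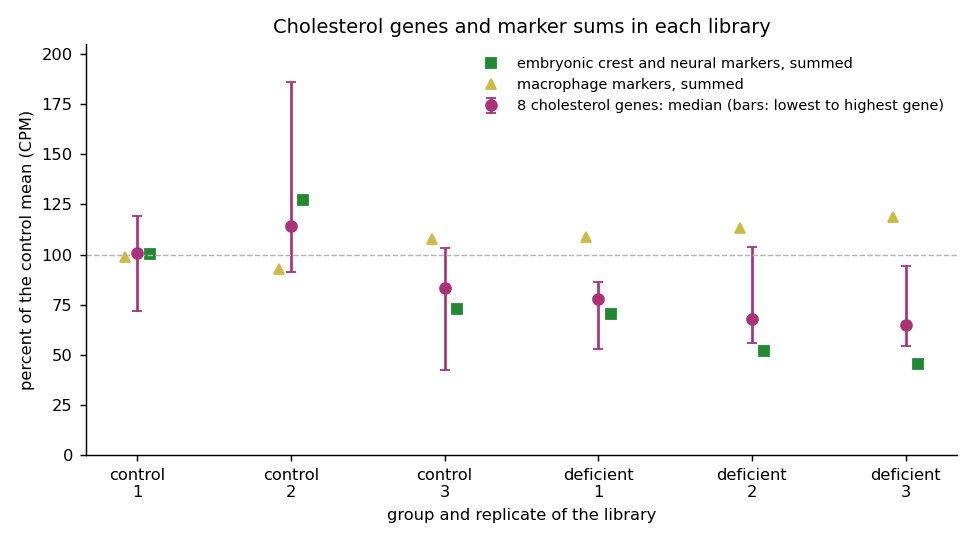
Each library's value as percent of the control mean of CPM, for the median of the 8 cholesterol genes (circles, bars from the lowest to the highest gene), the summed embryonic crest and neural markers (squares) and the summed macrophage markers (triangles), with a dashed line at 100%. The cholesterol median lies between 114% and 64.8%, the embryonic sum between 127% and 45.7% and the macrophage sum between 92.9% and 119%.

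The direction of all 8 genes depended on what the libraries were scaled to. With libraries scaled to the embryonic crest and neural markers, the 8 log2 fold changes lay between 0.17 for Idi1 and 0.72 for Insig1, with a median of 0.28, beside a median of 0.79 over all tested genes. Insig1 then had an edgeR adjusted p of 0.0535 and the other seven did not pass. With libraries scaled to the macrophage markers the values lay between −0.99 for Idi1 and −0.25 for Insig1, with a median of −0.70 beside −0.19 for all genes, and none passed, with Hmgcs1 at an adjusted p of 0.112, Sqle at 0.111, Lss at 0.113 and 7 genes at an unadjusted p under 0.05. The median of the 8 genes minus that of all genes was −0.51 on the log2 scale with TMM and with each of the marker scalings. Rescaling a library moves all its genes by nearly the same amount, so this likeness was fixed in advance. Relative to the embryonic markers, whose median was −0.02 after scaling to them, the 8 genes had higher log2 fold changes.

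**Figure D3:**
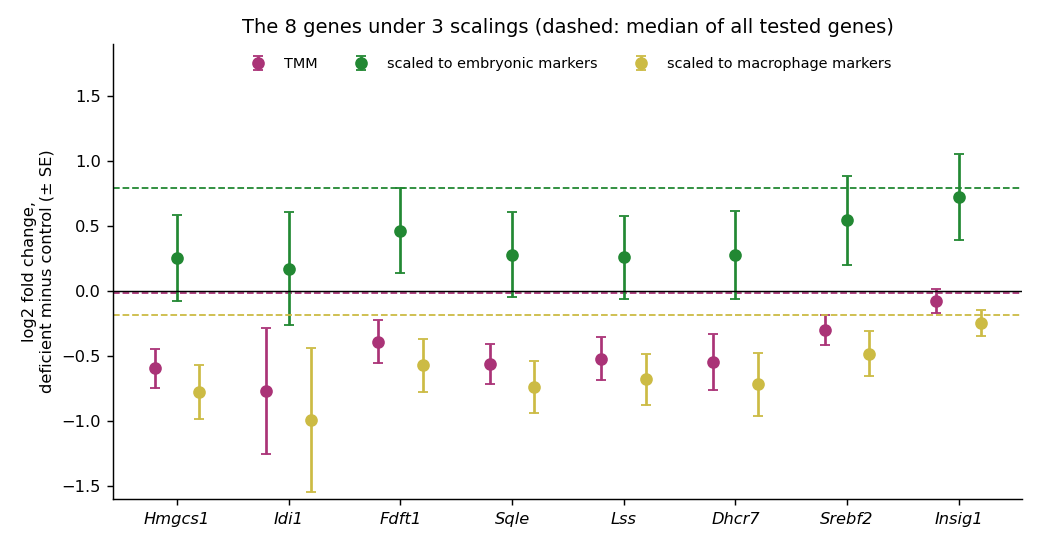
Log2 fold changes (deficient minus control) ± SE of the 8 genes after TMM normalization, after scaling to embryonic crest and neural markers and after scaling to macrophage markers, with a dashed line in the same color for the median of all tested genes. All 8 points lie below 0 with TMM and macrophage scaling, above 0 with embryonic scaling, and below the dashed line of their own scaling. Rescaling moves the points and the dashed line together, so their order was bound to stay nearly the same.

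The other enzymes of the route were examined next, since the 8 genes are not all of it. Of 15 further enzymes, all tested, 4 were lower at an edgeR adjusted p of at most 0.1, Cyp51 and Hsd17b7 among them, none was higher, and 13 had a lower mean in the deficient libraries. Of the 4, 3 were called lower, Cyp51 and Hsd17b7 among them. Over all 13961 tested genes 7.75% were lower at this adjusted p, 4.88% were called lower and 7305 had a negative log2 fold change. The list's median log2 fold change was −0.35. Among enzymes that remodel the sterol after lanosterol, Hsd17b7, the ketoreductase of sterol demethylation, had 5.42, 9.77 and 4.60 CPM in the controls, against 2.90, 2.08 and 2.66 CPM in the deficient libraries (log2 fold change −1.35, SE 0.31, adjusted p = 0.0599). Cyp51, the lanosterol demethylase, had 18.0, 25.8 and 15.2 CPM in the controls, against 14.0, 10.3 and 10.1 CPM in the deficient libraries (log2 fold change −0.77, SE 0.21, adjusted p = 0.0827). For Hsd17b7 and Cyp51 the groups did not overlap. Neither passed without either of control replicates 1 and 2 or either of deficient replicates 2 and 3, with edgeR adjusted p from 0.108 to 0.276. Without deficient replicate 2 the single enzyme of the list that passed was Fdps. Scaled to the embryonic markers, Hsd17b7 kept a negative log2 fold change (−0.45) and did not pass, while Cyp51 did not keep it (0.09).

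The enzymes named next did not pass. Steps of the mevalonate part had log2 fold changes near 0 in the kinase Pmvk (0.01, SE 0.17) and the decarboxylase Mvd (−0.0034, SE 0.17), and −0.14 (SE 0.24) in the mevalonate kinase Mvk. Acat2, the thiolase that makes acetoacetyl-CoA, had a log2 fold change of −0.58 (SE 0.20, edgeR adjusted p = 0.107), but 65.6% of its longest transcript matched Acat3 or Tcp1. Fdps, farnesyl diphosphate synthase, lay at 1.15 CPM with a log2 fold change of −1.05 (SE 0.59), on sequence shared in part with 6 other genes. Of the later steps, Lbr (−0.73, SE 0.31) and Tm7sf2 (−0.53, SE 0.24), which both reduce the ring, were further from 0 than Msmo1 (−0.17, SE 0.10), Nsdhl (−0.11, SE 0.16), Ebp (−0.01, SE 0.11) and Sc5d (0.05, SE 0.12). Whether the early, middle and late steps differ was not tested.

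**Figure D4:**
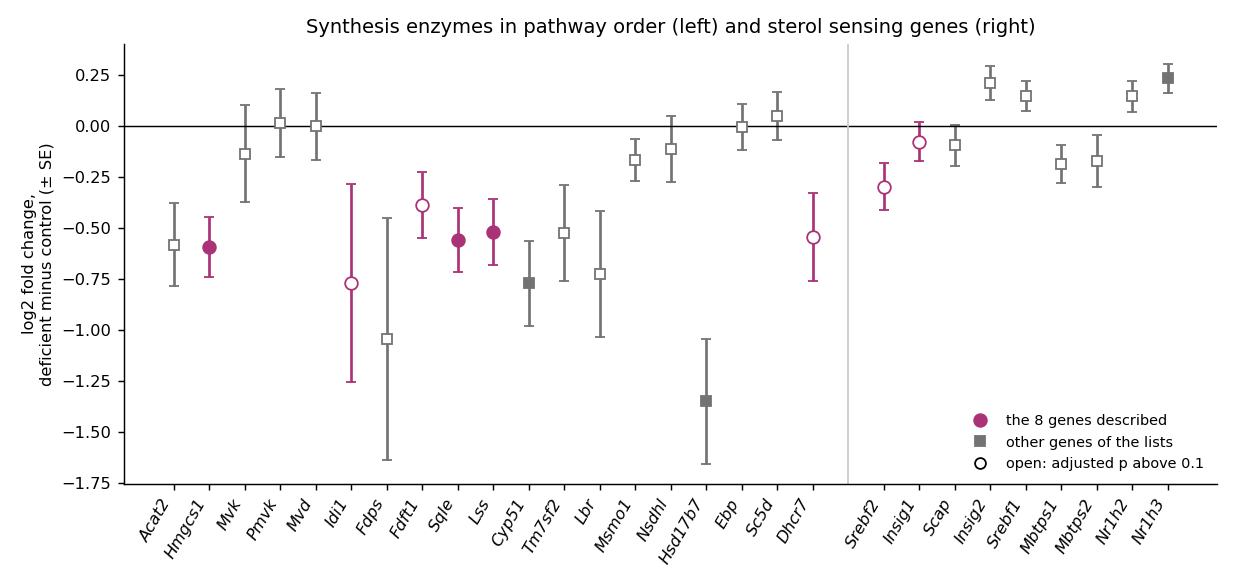
Log2 fold change (deficient minus control) ± SE for 19 synthesis enzymes in approximate pathway order on the left and 9 sterol sensing genes on the right, with circles for the 8 genes described, squares for the other genes of the lists, and open symbols for an edgeR adjusted p above 0.1. Filled symbols below 0 are Hmgcs1, Sqle, Lss, Cyp51 and Hsd17b7, and the filled symbol above 0 is Nr1h3.

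Of the 7 other sterol sensing genes, Nr1h3, which encodes the oxysterol receptor LXR alpha, was higher in the deficient libraries, beside 4.18% of all tested genes that were higher at this adjusted p. It had 66.6, 65.4 and 75.7 CPM in the controls, against 81.4, 78.8 and 84.2 CPM in the deficient libraries (log2 fold change 0.23, SE 0.071, edgeR adjusted p = 0.0901), and did not pass in 5 of the 6 fits that left out a library, the exception being that without control replicate 3. The macrophage markers differed by a like amount. Insig2, the second Insig protein, had 27.3, 26.9 and 31.2 CPM in the controls, against 33.4, 32.0 and 33.7 CPM in the deficient libraries, without overlap, and a log2 fold change of 0.21 (SE 0.085) that did not pass (adjusted p = 0.142). Srebf1, which encodes SREBP1, had a log2 fold change of 0.15 (SE 0.075) and the escort gene Scap one of −0.10 (SE 0.10). The Golgi protease genes Mbtps1 (−0.19, SE 0.094) and Mbtps2 (−0.17, SE 0.13) and the receptor gene Nr1h2 (0.14, SE 0.077) did not pass. The list's median was 0.14.

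Among 10 genes of cholesterol uptake and intracellular transport, Lrp8, a receptor of lipoproteins and Reelin, was called lower (log2 fold change −0.80, SE 0.25, edgeR adjusted p = 0.0919), as was Stard4, a carrier of cholesterol between membranes (−0.70, SE 0.23, adjusted p = 0.0971). These calls stand beside 4.88% of all tested genes called lower. The Lrp8 groups overlapped, with control replicate 3 at 6.24 CPM and deficient replicate 1 at 6.34 CPM, and those of Stard4 did not. Stard3, which tethers endosomes, was higher (0.20, SE 0.059, adjusted p = 0.0828), and the lysosomal carrier Npc2 was the most abundant at 2028 CPM (0.19, SE 0.074). Of all tested genes 4.18% were higher at an adjusted p of at most 0.1. Lrp8 and Stard3 passed in the fits without control replicate 3 or deficient replicate 1 and Stard4 in that without control replicate 3, of the 6 that left out a library. Neither Lrp8 nor Stard4 passed by limma-voom, which passed 2 genes of the list, both higher. None of the 7 tested genes of efflux and storage passed by edgeR or limma-voom, with 4 at an unadjusted p under 0.05 and 2 passing by DESeq2. Without control replicate 3, 5 of the 7 passed as higher by edgeR (Soat1, Nceh1, Apoe, Abcg1 and Ch25h), and without deficient replicate 1 Abcg1 did. In the edgeR fit without control replicate 3, 4700 of all 14430 tested genes had an unadjusted p under 0.05. That share is not at the adjusted p used for the 5 genes. Apoe, the most abundant at 6042 CPM, had a log2 fold change of 0.18 (SE 0.080) and Cyp27a1, the largest, one of 0.21 (SE 0.17). The eighth, Abcg4, had at most 11 counts in any library and was not tested. None of the 7 genes of the branch to ubiquinone, dolichol and geranylgeranyl passed by edgeR, DESeq2 or limma-voom, and 0 had an unadjusted p under 0.05, the most abundant being Nus1 (0.16, SE 0.073) and the largest Pdss2 (−0.26, SE 0.26).

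Fatty acid synthesis, which SREBP1 drives, had larger fold changes than the 8 cholesterol genes in several members. Of 10 genes 5 were lower at an edgeR adjusted p of at most 0.1, beside 7.75% of all tested genes, and 4 of these were called lower, beside 4.88%. These were Scd1, the stearoyl-CoA desaturase (log2 fold change −1.34, SE 0.37, adjusted p = 0.0833), the elongase Elovl6 (−1.18, SE 0.29, adjusted p = 0.0688), Acaca, which makes malonyl-CoA (−1.08, SE 0.29, adjusted p = 0.0828), and the desaturase Fads1 (−0.58, SE 0.15, adjusted p = 0.0731). Acly, which supplies cytosolic acetyl-CoA to both routes and was the most abundant at 99.2 CPM, was lower by less (−0.21, SE 0.063, adjusted p = 0.0892). The list's median was −0.80, and 9 of 10 genes had a lower mean in the deficient libraries, beside 7305 of all 13961 with a negative log2 fold change. None of the 10 passed without either of control replicates 1 and 2 or either of deficient replicates 2 and 3 (edgeR), whereas 9 passed without control replicate 3. Over all tested genes the fit without control replicate 3 called 1245 of 14430, against 689 of 13961 with all libraries. A call also needs the fold change and CPM thresholds, so these are not shares at the adjusted p alone. The fit without control replicate 3 had 4700 genes at an unadjusted p under 0.05 by edgeR.

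Among the other tested genes of at least 10 CPM, the 5 whose log2 CPM followed the mean standardised profile of the 8 genes most closely over the 6 libraries were Qser1, Fam168b, Sept11, Ckap4 and Cttn. Their Pearson r with that profile ran from 0.993 to 0.996 among 6990 genes examined, and the libraries share the shift of markers described above, so r is a description and carries no p. Of the 8 genes, Sqle (0.972) and Hmgcs1 (0.969) lay closest to the profile that they helped to set and Insig1 (0.208) farthest from it. Qser1 was lower in the deficient libraries (log2 fold change −0.89, SE 0.18, edgeR adjusted p = 0.0534), and its adjusted p was 0.215 without control replicate 1, 0.131 without control replicate 2 and 0.173 without deficient replicate 3.

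Markers of other blood and vessel cells were read beside these results. The 5 tested erythroid markers summed to between 12.3 and 60.2 CPM in the controls and between 5.13 and 11.3 CPM in the deficient libraries, led by the embryonic globin Hbb-y (log2 fold change −2.07, SE 0.60, edgeR adjusted p = 0.106), and Klf1 was at 0 in control replicate 1. The sum was highest in control replicate 2, which was also the highest control for 5 of the 8 genes, Idi1 and Hmgcs1 among them. Control replicate 2 was the lowest control for Lss and Insig1, and for Dhcr7 it lay between the other controls. The 3 tested neutrophil markers summed to between 16.6 and 21.4 CPM in the controls and between 23.0 and 26.5 CPM in the deficient libraries, with S100a8 the most abundant and S100a9 the largest change (0.53, SE 0.19, adjusted p = 0.109), and Mpo was at 0 in all 3 controls. The 4 tested endothelial markers summed to between 172 and 195 CPM and between 198 and 211 CPM, nearly all from Kdr (0.17, SE 0.064), while the defining markers Tek and Cldn5 had 0 to 8 counts. The part of these markers in the cholesterol values was not tested.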

How the data were processed

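RNAseq counts of 3 control and 3 BAF155/170-deficient samples were analysed. Per the labels and the study's methods, the authors trimmed adapters with cutadapt 1.18, aligned strand-specific poly(A) paired-end reads to GRCm38 with STAR and counted them with featureCounts. The deposited values are raw counts per gene. The annotation release, the strand setting and the treatment of multiply mapped reads are not given in the sources used here. Gene names and exon lengths came from GENCODE M21, which matched 46488 of 46983 identifiers, and the genes without a name held between 0.0558% and 0.0706% of the counts.

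Counts were normalized by TMM and tested with edgeR 4.0.16 (filterByExpr, minimum count 10, robust quasi-likelihood, condition only, Benjamini-Hochberg adjustment over 13961 genes). SEs come from the F statistic. The common biological coefficient of variation was 12.8%. The methods give 3 control and 3 deficient embryos, the labels do not tie samples to embryos, and p-values measure the spread between these samples. Alternatives were DESeq2 1.42.0, limma-voom 3.58.1, other scalings and filters, a length correction, a replicate block and leaving out each library. The fits were tested on simulated data. Shared sequence was searched with blastn 2.17.0 in GENCODE M21 transcripts (at least 95% identity over 100 bases).

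The 8 genes and all lists were chosen with earlier results of these data known. Named genes are the 8, every other synthesis and sensing gene, in the remaining lists those with an adjusted p of at most 0.1, the most abundant and the largest change, Smarcc1 and Smarcc2, and the 5 genes most alike in profile. Ctsb was added after its values were seen because it overlaps Fdft1. Some genes that this rule names are not reported here, and they remain in the counts and medians of their lists.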

Additional observations from a re-analysis of the deposited data

How the results depend on the processing

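The signs of the 8 log2 fold changes were the same in all alternatives run apart from the scaling to embryonic markers, where Hmgcs1 was at 0.25, Idi1 at 0.17, Fdft1 at 0.46, Sqle at 0.28, Lss at 0.26, Dhcr7 at 0.28, Srebf2 at 0.54 and Insig1 at 0.72, and the median of the 8 at 0.28. That scaling passed 1 of the 8 genes and 7 of the other enzymes, all higher, and called 8535 genes in place of 689, of which 8421 were higher. Scaling to the macrophage markers passed 0 of the 8 and 0 of the other enzymes and called 0 genes, with 7, 8 and 3257 at an unadjusted p under 0.05. At an adjusted p of at most 0.05 in place of 0.1, 0 of the 8 passed by the main edgeR fit (6 had an unadjusted p under 0.05), 1 by DESeq2 and 0 by limma-voom. Other edgeR fits on all 6 libraries went below 0.05. Hmgcs1 had an adjusted p of 0.0137 with library totals and 6.6e-06 without the filter on low counts. The replicate block is given below. With 1 library left out, the number of the 8 at an adjusted p of at most 0.1 ran from 0 to 7, their median from −0.63 to −0.34, the number of other enzymes from 0 to 6 and the number of called genes from 0 to 1245. It was 0 of 8 in 4 of these 6 fits, which left out control replicate 1 or 2 or deficient replicate 2 or 3, and 7 without control replicate 3. The cause was not tested. The labels do not say whether the replicate numbers pair the samples. Correlations of the deviations of same-numbered libraries were 0.028, −0.034 and 0.29, and those of differently numbered libraries ran from −0.30 to 0.26. They cannot decide the question, because deviations from the mean of 3 libraries are not independent. A replicate block called 1164 genes, passed 4 of the 8 genes, Srebf2 being the added one (log2 fold change −0.29, adjusted p = 0.0275), passed 6 of the other enzymes and left the median at −0.53. In that edgeR fit the adjusted p was 0.0041 for Hmgcs1, 0.028 for Sqle and 0.032 for Lss. Of 119 values of single genes over the alternatives, 87 kept both their sign and their side of the threshold. Idi1 had no value with the filter of at least 2 CPM in 3 libraries. Dhcr7, at 46 to 85 counts per library, and Idi1, at 13 to 35, did not pass with all libraries, with SEs of 0.22 and 0.49. Whether their counts account for this was not tested.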
